A study of Homo sapiens with 8 samples.

Results

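The endoderm transcription factors that set gut and liver identity, CDX1, CDX2, HNF4A, FOXA1, FOXA2, GATA4, GATA6, SOX9, and KLF5, were read out in 4 cancer cell lines by RNA immunoprecipitation (RIP) with an antibody against RPS6, which belongs to the small subunit of the ribosome. The members were chosen by gene name, and all 9 were found among the 57756 genes of the deposited tables. The lines stand for cancers of the liver (Hep3B), colon (HCT116), prostate (DU145), and pancreas (SW1990). The labels name no treatment, genotype, or clone for any line. Each line gave 1 RIP library and 1 input library of total lysate RNA, so a difference between lines has no replicate and was not tested. The study's text names Hep3B for the liver pair and its title carries the ending of that name, while its source name, cell line entry, and protocol read Huh7, another liver cancer line. The pair is called Hep3B here, and which name is right was not settled. FPKM stands for fragments per kilobase of transcript per 1000000 mapped fragments, and the deposited values were used as given.

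These factors bind DNA and act in networks in which several switch on one another. HNF4A, FOXA1, FOXA2, and GATA4 direct liver genes, FOXA and GATA proteins open closed chromatin during endoderm formation, and CDX1 and CDX2 specify the intestine. GATA6 is used in pancreas and intestine, SOX9 marks ducts and progenitor cells, and KLF5 acts in dividing epithelial cells of the gut. Tumor lines often keep part of the network of their tissue of origin.

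The lines were first compared with marker lists of their tissues. All 15 liver genes had at least 1 FPKM in the Hep3B input, led by APOA2 (9041 FPKM) and ALB (5030 FPKM), which encode secreted plasma proteins, whereas 0 had this level in the HCT116 and SW1990 inputs and 2 in the DU145 input. None of the 15 intestinal genes reached 1 FPKM in the HCT116 input, although these cells come from colon. In the DU145 input, the prostate antigen gene KLK3, a defining marker of prostate cells, was listed at 0. The SW1990 input had 1 of 10 pancreatic acinar genes above 1 FPKM, the trypsinogen gene PRSS1 with 1.84 FPKM. The ductal keratin gene KRT7 had 3.17 FPKM in the SW1990 input and 254 FPKM in the DU145 input. Of the 10 ductal and epithelial genes, 7 had at least 1 FPKM in the SW1990 input, among them KRT19 (229 FPKM), KRT8 (531 FPKM), and KRT18 (756 FPKM). KLK3 and KRT7 were singled out after their values were seen. These lists do not tell pancreatic ductal cells from other epithelial cells, and the identity of the pair labelled SW1990 was not checked against another source.

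**Figure D1:**
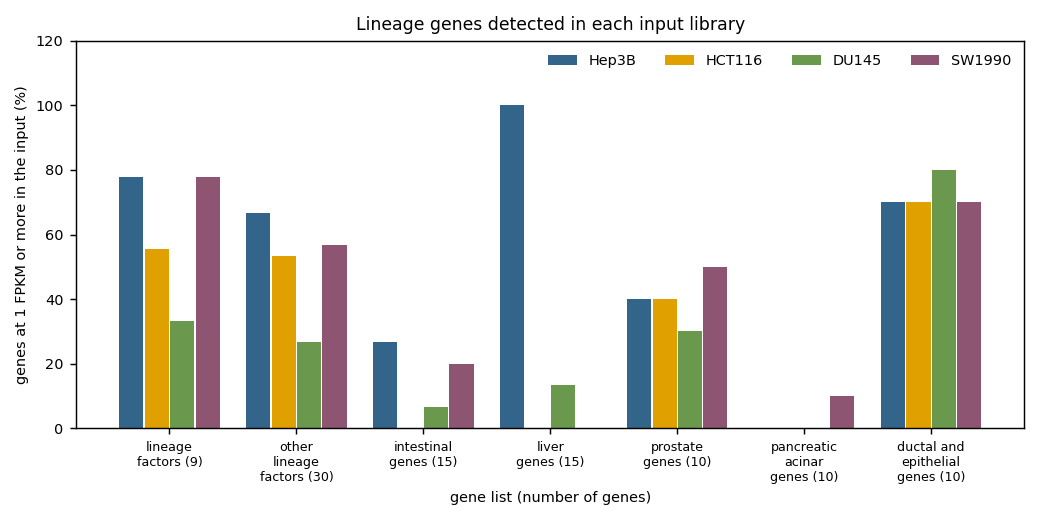
Bars show the percentage of the genes of each list with at least 1 FPKM in the input library of each cell line, for the 9 lineage factors and 6 marker lists, with 1 library per bar. All 15 liver genes reach this level in Hep3B cells, and 0 of the 15 intestinal genes do in HCT116 cells.

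In the inputs, 7 of the 9 factors had at least 1 FPKM in Hep3B cells, 7 in SW1990, 5 in HCT116, and 3 in DU145 cells. FOXA1, SOX9, and KLF5 were the 3 that reached 1 FPKM in all 4 inputs. The tables of Hep3B with HCT116 and of DU145 with SW1990 had steps that averaged near 1 within each table and so appear scaled separately. Folds between lines of different tables are therefore also given from recovered fragments per 1000000, which carry no such scaling, and in TPM (FPKM rescaled to a sum of 1000000 per library). The 95% Wilson intervals of these rates cover counting error only. In HCT116, DU145, and SW1990 cells, folds of RIP over input were larger in FPKM than in these rates. This held for every factor with fragments in both libraries, and for CDX2 in HCT116 cells the folds were 1.30 and 1.01. Recovered fragments numbered between 35796162 and 54209626 in an input and between 34630362 and 42610075 in a RIP library. In bulk RNA, fewer cells with a transcript and less of it per cell cannot be told apart.

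CDX2 was the factor with the widest range between lines, and the line with most of it was SW1990, not the colon line. CDX2, the homeobox protein that drives intestinal fate, had 0.374 FPKM in the Hep3B input and 1.05 FPKM in the Hep3B RIP. HCT116 had 6.25 and 8.15, DU145 had 0 and 0.0160, and SW1990 had 86.6 and 189. The SW1990 input therefore stood 13.8-fold above the HCT116 input (11.9-fold per 1000000 fragments and 15.4-fold in TPM), and the RIP libraries of these lines differed 23.2-fold. Per 1000000 fragments, CDX2 had 323 in the SW1990 input (317 to 329) and 27.1 in the HCT116 input (25.6 to 28.6), and the intervals were apart. No CDX2 fragment was found in the DU145 input, whose floor of 3 fragments is 0.0553 per 1000000, so CDX2 was at least 5838-fold higher in the SW1990 input. CDX1, its close relative in the intestine, was listed at 0 in the 6 libraries of the other lines and had 0.0768 FPKM in the input and 0.157 FPKM in the RIP of SW1990 cells, from 6 and 10 fragments. The gene of one intestinal factor was thus abundant in SW1990 cells while the other was barely detected.

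HNF4A, a nuclear receptor at the center of the hepatocyte network, was highest in the liver line. It had 53.2 FPKM in the input and 143 FPKM in the RIP of Hep3B cells. SW1990 followed with 6.23 and 32.0, HCT116 had 0.915 and 2.33, and DU145 had 0 in both. The order was Hep3B, SW1990, HCT116, and DU145 in inputs and RIP libraries alike, and the counting intervals of neighbours in the inputs were apart. Hep3B was 8.55-fold above SW1990 in the inputs by FPKM, 9.47-fold per 1000000 fragments, and 4.55-fold in TPM. Against DU145 cells, where 0 fragments were found in both libraries, Hep3B was at least 5250-fold higher in the inputs.

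The tables give HNF4A on chromosome 20 (42984339 to 43061485, human genome version 19) and CDX2 on chromosome 13 (28536273 to 28545276). RefSeq (GRCh38.p14) gives HNF4A starts in 2 places, so its mRNA can come from separate promoters, which the gene values of these tables cannot tell apart. The 250 bases before these starts and before that of CDX2 are shown, since HNF4A and CDX2 separated the 4 lines most. Capitals mark matches on either strand to short motifs of the members' own families and to a TATA box. The motif of the FOXA proteins was searched as TGTTTAC and that of HNF4A, a receptor that binds as a dimer, as CAAAGTCCA. GATA proteins were represented by the letters AGATAA and the intestinal CDX proteins by the letters TTTATG. The letters for the KLF family were GGGCGG, those for the SOX family of factors were AACAAT, and the TATA box was searched as TATAAA. Matches in the windows shown did not overlap. The CDX2 sequence is the minus strand of chr13:27969316-27969565, and the HNF4A sequences are the plus strand of chr20:44355449-44355698 and of chr20:44400989-44401238, all in GRCh38.p14.
CDX2: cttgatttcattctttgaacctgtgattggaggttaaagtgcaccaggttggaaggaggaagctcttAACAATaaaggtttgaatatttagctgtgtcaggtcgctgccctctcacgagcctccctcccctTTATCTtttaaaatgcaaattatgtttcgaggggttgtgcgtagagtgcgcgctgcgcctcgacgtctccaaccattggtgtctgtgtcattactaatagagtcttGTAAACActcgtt
HNF4A upstream start: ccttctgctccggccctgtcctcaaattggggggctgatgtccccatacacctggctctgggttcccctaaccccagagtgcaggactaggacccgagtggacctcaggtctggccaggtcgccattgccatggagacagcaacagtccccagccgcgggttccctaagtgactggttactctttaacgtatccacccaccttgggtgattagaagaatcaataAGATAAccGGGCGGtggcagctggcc
HNF4A downstream start: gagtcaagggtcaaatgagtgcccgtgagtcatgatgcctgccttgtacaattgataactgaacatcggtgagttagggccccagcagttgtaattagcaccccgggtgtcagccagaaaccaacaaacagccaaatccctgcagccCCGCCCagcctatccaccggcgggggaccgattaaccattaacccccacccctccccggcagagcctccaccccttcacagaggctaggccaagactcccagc
The CDX2 window held 1 match each for FOXA, GATA, and SOX, and these motifs occur in 2.98%, 9.17%, and 8.98% of the 35116 promoter windows of the table. The upstream HNF4A window held the GATA and KLF motifs, and the downstream window held the KLF motif, which is found in 42.6% of all windows. The HNF4 and CDX motifs, which are found in 0.325% and 9.64% of all windows, were in 0 of the members' windows. Promoter windows were matched for 5 of the 9 factors. A match is a run of letters and not a site of binding.

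The forkhead factors FOXA1 and FOXA2 differed in how widely they were expressed. FOXA2 was largely a Hep3B transcript, with 15.9 FPKM in the input and 40.1 FPKM in the RIP. The values were 2.41 and 2.30 in SW1990, 0.363 and 0.657 in DU145, and 0.0646 and 0.229 in HCT116 cells. Its Hep3B input was 6.60-fold above that of SW1990 cells, the next line, with 6.02-fold per 1000000 fragments and 3.52-fold in TPM. FOXA1, also a factor of prostate epithelium, had 65.2 FPKM in the input and 115 in the RIP of Hep3B cells. It had 51.8 and 44.9 in DU145, 30.9 and 50.9 in SW1990, and 1.71 and 1.94 in HCT116 cells. HCT116 was far below the other lines in both kinds of library. The order of Hep3B and DU145 at the top rests on the unit, since FOXA1 had 144 and 105 fragments per 1000000 in these inputs but 39.3 and 58.0 TPM. The FPKM values summed to 1659970 in the Hep3B input and to between 884796 and 981929 in the other inputs.

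GATA4 separated the liver line from the rest, and GATA6 was highest in SW1990 cells. GATA4 (chromosome 8), a zinc finger factor of liver and heart, had 20.3 FPKM in the Hep3B input and 75.8 in the Hep3B RIP, and was listed at 0 in both HCT116 libraries. It had 0.614 and 0.818 FPKM in DU145 and 0.743 and 1.33 FPKM in SW1990 cells, and the counting intervals of the DU145 and SW1990 inputs overlapped (0.973 to 1.57 and 0.747 to 1.41 fragments per 1000000). Hep3B was 27.4-fold above SW1990 in the inputs by FPKM, 52.2-fold per 1000000 fragments, and 14.6-fold in TPM, and at least 812-fold above HCT116 per 1000000 fragments. GATA6 had 16.6 and 53.8 FPKM in the input and RIP of SW1990 cells, 4.40 and 11.3 in Hep3B, 2.09 and 5.53 in HCT116, and 0.830 and 3.08 in DU145 cells. The SW1990 input was 3.78-fold above that of Hep3B by FPKM, 3.83-fold per 1000000 fragments, and 7.08-fold in TPM. The order of the 4 lines was the same in inputs and RIP libraries for both genes.

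SOX9 and KLF5, like FOXA1, had at least 1 FPKM in every input, with low points in different lines. SOX9 had 60.6 FPKM in the input and 70.9 in the RIP of SW1990 cells, 32.0 and 76.1 in Hep3B, 28.9 and 62.2 in HCT116, and 1.76 and 3.75 in DU145 cells. The SW1990 input was 1.90-fold above that of Hep3B by FPKM, 1.94-fold per 1000000 fragments, and 3.56-fold in TPM. DU145 was low in both libraries, while the top place passed from SW1990 in the inputs to Hep3B in the RIP libraries. KLF5 had 49.2 FPKM in the input and 35.0 in the RIP of SW1990 cells, 20.5 and 11.5 in DU145, 13.4 and 11.7 in HCT116, and 4.55 and 7.47 in Hep3B cells. The SW1990 input was 2.41-fold above that of DU145 by FPKM. Its lowest level in both kinds of library was in Hep3B cells, where the liver factors were highest.

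**Figure D2:**
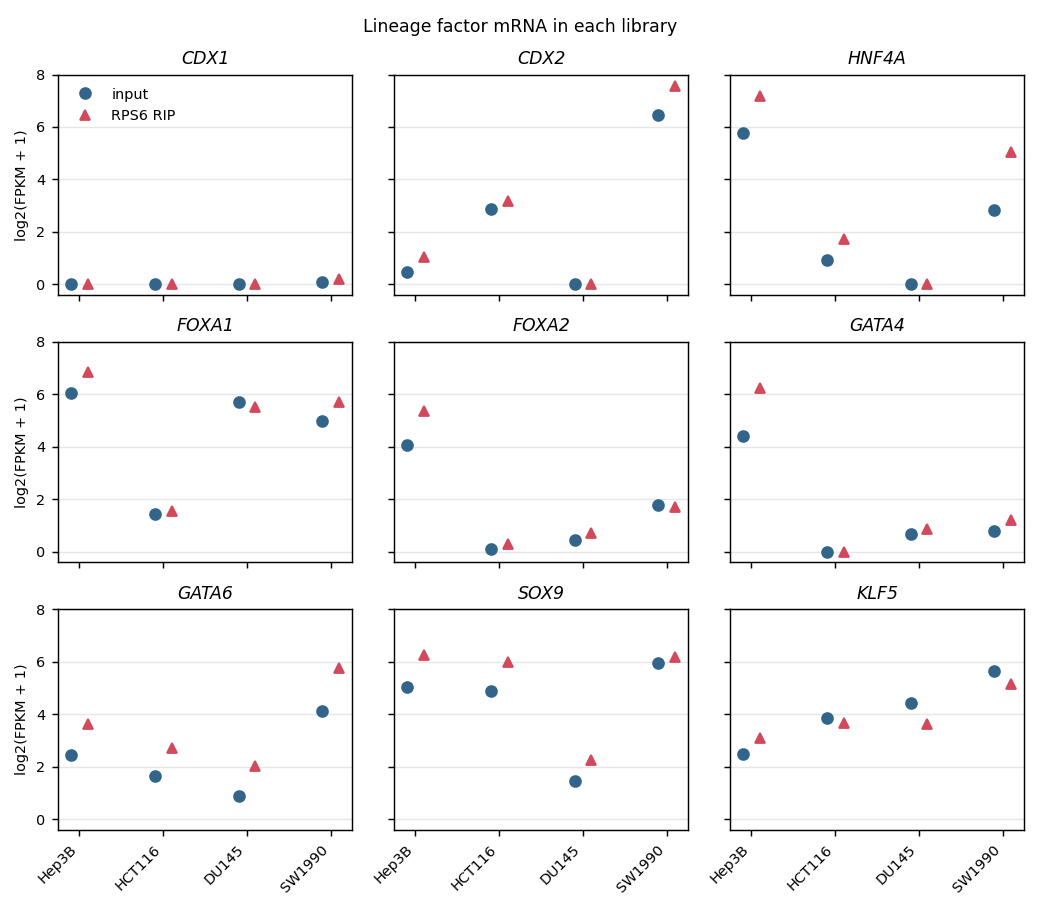
Each panel shows the level of 1 factor as log2(FPKM + 1) in the 4 cell lines, with circles for input and triangles for RPS6 RIP libraries, 1 library per symbol. HNF4A, FOXA2, and GATA4 peak in Hep3B cells and CDX2 and GATA6 in SW1990 cells, and CDX1 stays near 0 throughout.

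In the inputs Hep3B was the highest line for 4 factors (HNF4A, FOXA1, FOXA2, and GATA4) and SW1990 for the other 5, by FPKM, while FOXA1 was highest in DU145 by TPM. The same line was highest in the RIP libraries for 8 of the 9 (all but SOX9), beside 65.3% of the 19921 genes tested. The whole order of the lines was the same for 6 of the 9, beside 29.4% of the genes tested. For CDX1, which counts among these, 3 of the lines were tied at 0. Input and RIP of a line come from the same cells and do not replicate it. On the log2(FPKM + 1) scale, the range from the lowest to the highest input had a median of 4.45 over the 8 factors with enough counts and of 1.30 over all genes tested. Without SW1990 these medians were 3.79 and 1.04. The range was widest for CDX2 (6.45), HNF4A (5.76), and FOXA1 (4.61) and narrowest for KLF5 (3.18). The factors were picked as lineage genes with the data known, so this difference is a description.

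RIP and input were then compared across the 4 lines, to ask which of these mRNAs were over-represented in the RPS6 pulldown. CDX2, HNF4A, FOXA2, GATA4, GATA6, and SOX9 were higher in RIP. These are 6 of the 8 factors with a mean of at least 10 counts, and 0 were lower. Of all 19921 genes tested, 26.5% were higher and 24.9% were lower by the same rule (edgeR's quasi-likelihood test with the cell line as a block, adjusted p-value under 0.05, Benjamini-Hochberg adjustment over all genes). The median log2 fold change was 1.11 over the 8 factors and -0.05 over all genes tested. No factor was lower at an unadjusted p-value under 0.05 or by DESeq2 either, which called 0 lower and the same 6 genes higher.

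GATA6 had the largest and most even increase. Its FPKM in RIP was 2.56-fold the input in Hep3B, 2.64-fold in HCT116, 3.24-fold in SW1990, and 3.72-fold in DU145 cells. The fitted log2 fold change was 1.75 (SE 0.19, edgeR adjusted p = 3.71e-05), and RIP was higher in 4 of 4 lines. A transcript listed as RP11-627G18.1 shares the GATA6 locus of the tables (chromosome 18, 19749403 to 19785192) and had at most 177 fragments in an input and 478 in a RIP library, compared with 2011 and 5446 for GATA6 in SW1990 cells.

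HNF4A rose by 1.53 on the log2 scale (SE 0.28, edgeR adjusted p = 0.00134) and was higher in 3 of the 3 lines that express it. Without the SW1990 pair its log2 fold change was 1.17 (edgeR adjusted p = 0.00889). In FPKM the increase was 2.68-fold in Hep3B, 2.55-fold in HCT116, and 5.13-fold in SW1990 cells. SOX9 rose by 1.12 (SE 0.24, edgeR adjusted p = 0.00267). Its FPKM was 2.38-fold higher in Hep3B, 2.15-fold in HCT116, and 2.13-fold in DU145 cells, but 1.17-fold in SW1990 cells, where fragments per 1000000 went from 271 to 261. HNF4A, GATA6, and SOX9 were called without any 1 of the 4 pairs and with limma on log2(FPKM + 1), but not without the block for cell line, where 0 factors were called.

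The calls of CDX2, FOXA2, and GATA4 were lost when some single pairs were left out. CDX2 had a fitted log2 fold change of 1.03 (SE 0.27, edgeR adjusted p = 0.00932). Its FPKM was 2.81-fold higher in Hep3B, 1.30-fold in HCT116, and 2.19-fold in SW1990 cells, and per 1000000 fragments the HCT116 libraries were nearly equal, with 27.1 and 27.3. CDX2 did not pass the threshold without the Hep3B pair (log2 fold change 0.74, edgeR adjusted p = 0.0659) or without the SW1990 pair, where the fold was as large but its error greater (1.09, SE 0.43, edgeR adjusted p = 0.0669). FOXA2 had a fitted log2 fold change of 1.10 (SE 0.32, edgeR adjusted p = 0.0160), with an FPKM ratio of 3.54 in HCT116 (from 9 and 27 fragments), 2.51 in Hep3B, 1.81 in DU145, and 0.953 in SW1990 cells. Without the Hep3B pair its log2 fold change was 0.85 (edgeR adjusted p = 0.185), and without the SW1990 pair it was 1.57 (edgeR adjusted p = 0.00135). GATA4 had a fitted log2 fold change of 1.16 (SE 0.38, edgeR adjusted p = 0.0283), with an FPKM ratio of 3.73 in Hep3B, 1.33 in DU145, and 1.79 in SW1990 cells. In DU145 cells its fragments per 1000000 went the other way, from 1.24 to 0.952. Without the Hep3B pair the GATA4 log2 fold change was 0.45 (adjusted p = 0.654 by edgeR), and without the SW1990 pair it was 1.21 (SE 0.48, edgeR adjusted p = 0.0753), near the value over all pairs. With limma on log2(FPKM + 1), the adjusted p was 0.137 for CDX2, 0.242 for FOXA2, and 0.171 for GATA4.

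**Figure D3:**
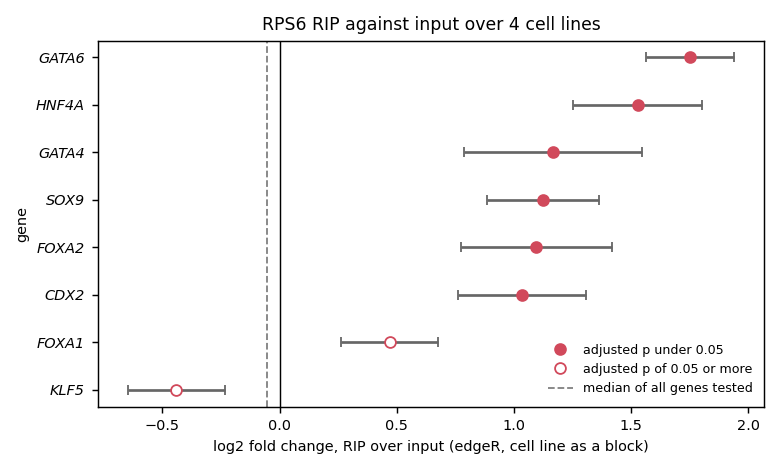
Points show the log2 fold change of RIP over input for the 8 factors with enough counts, from edgeR with the cell line as a block over 4 pairs. Bars show the standard error, derived from the F statistic of the test. Filled points pass an adjusted p-value of 0.05, and the dashed line marks the median of -0.05 over all genes tested. GATA6 (1.75) lies highest and KLF5 (-0.44) is the only factor below 0.

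FOXA1 and KLF5 did not pass the threshold. FOXA1 had a fitted log2 fold change of 0.47 (SE 0.21, edgeR adjusted p = 0.0825), with an FPKM ratio of 1.76 in Hep3B and 1.65 in SW1990, 1.13 in HCT116, and 0.867 in DU145 cells. By fragments per 1000000, FOXA1 was higher in RIP in 2 lines and lower in HCT116 (4.52 to 3.97) and DU145 cells. Its locus in the tables (chromosome 14, 38059188 to 38672128) is shared with TTC6, which had at most 678 fragments in an input, compared with 5150 for FOXA1 in the same Hep3B library. KLF5 had a fitted log2 fold change of -0.44 (SE 0.21, edgeR adjusted p = 0.0999) and was the factor with the lowest value. Its FPKM ratio was 1.64 in Hep3B, but 0.870 in HCT116, 0.711 in SW1990, and 0.564 in DU145 cells, while its fragments per 1000000 were lower in RIP in 4 of 4 lines. In Hep3B cells the KLF5 fragments went from 15.9 to 14.4 per 1000000, so the FPKM given for the same rate of fragments was 1.81-fold higher in the RIP than in the input. Without the Hep3B pair KLF5 was lower past the threshold, with a log2 fold change of -0.70 (adjusted p = 0.0208 from edgeR). CDX1 had a mean of 2.22 counts and was not tested across genes. Its log2 ratio of (FPKM + 1) was 0.10 in SW1990 cells, and in the other lines it was listed at 0 in both libraries.

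Within single lines, where 1 library stands against 1 and no test is possible, the liver line had the highest median ratio. In Hep3B cells 8 of the 9 factors had more FPKM in RIP than in input, beside 54.4% of the genes tested, and the median log2 ratio of (FPKM + 1) was 1.19, beside 0.08 over the genes tested. In SW1990 cells 7 were higher, beside 50.2% of genes, with a median of 0.42. In HCT116 cells 6 were higher, beside 50.9%, with a median of 0.21. In DU145 cells 5 were higher, beside 52.3%, with a median of 0.02. The medians in SW1990, HCT116, and DU145 cells fell on weakly detected factors. These were GATA4 (38 and 67 fragments), FOXA2 (9 and 27), and CDX2 (0 and 2). The added 1 draws such ratios toward 0, so the order of the medians also depends on which factors a line expresses. With 0.1 added instead, the medians were 1.28 in Hep3B, 0.72 in SW1990, 0.38 in HCT116, and 0.21 in DU145 cells. By fragments per 1000000 the numbers higher were 7, 6, 5, and 4 in the same order of lines. CDX2, GATA6, and SOX9 had more FPKM in RIP in all 4 lines, as did 30.7% of the genes tested. CDX2 was listed at 0 in the DU145 input and had 2 fragments in the DU145 RIP, which is under the floor of 3.

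**Figure D4:**
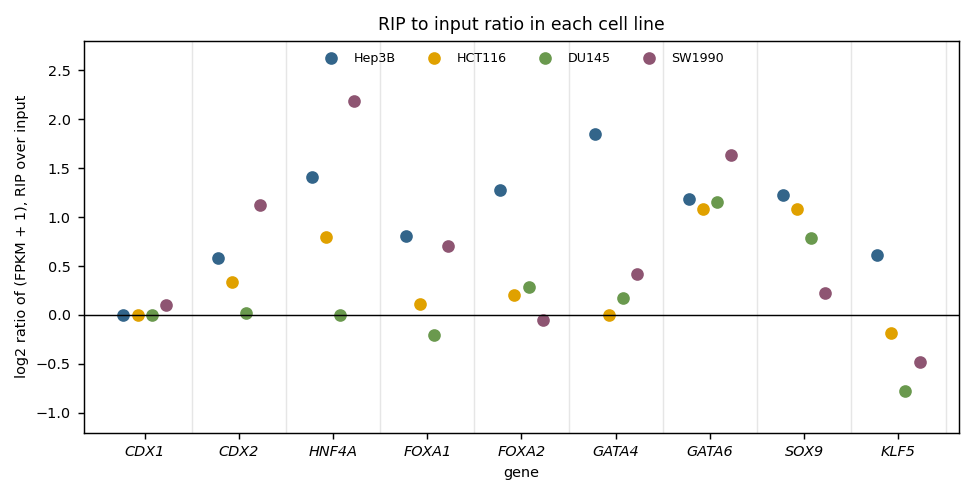
Points show the log2 ratio of (FPKM + 1) in RIP over input for each of the 9 factors, with a color for each cell line and 1 pair of libraries per point. The 4 points of GATA6 lie close together between 1.08 and 1.64, while HNF4A reaches 2.19 in SW1990 and GATA4 reaches 1.85 in Hep3B cells.

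The list of 30 related lineage factors gave a wider view of the network. Of the 26 with enough counts, 9 were higher in RIP (among them FOXA3, CEBPA, CEBPB, ELF3, KLF4, and MNX1), 2 were lower (ONECUT2 and HHEX), and 15 did not pass the threshold, beside the 26.5% higher and 24.9% lower among all genes tested. The median log2 fold change was 0.54. Without the SW1990 pair 9 of 25 were higher and 3 lower. CEBPB, a leucine zipper factor of liver and inflammation, had the largest increase with the same direction in 4 of 4 lines (1.71 on the log2 scale, SE 0.22, edgeR adjusted p = 0.000116). KLF4, the relative of KLF5 found in differentiating epithelium, rose by 1.57 (SE 0.24, edgeR adjusted p = 0.00036), whereas KLF5 did not pass the threshold. ONECUT2, which acts with HNF4A and FOXA proteins in liver development, decreased by 1.43 on the log2 scale (SE 0.21, edgeR adjusted p = 0.000225) and was lower in 4 of 4 lines. The levels of this list again set the lines apart. PROX1, a factor of hepatocytes, had 97.7 FPKM in the Hep3B input and at most 0.261 FPKM in the others, and SOX4 had 116 FPKM in the Hep3B input and at most 21.9 FPKM in the others. ASCL2, a factor of intestinal stem cells, had 153 FPKM in the SW1990 input and at most 0.0401 FPKM in the others. PDX1, a factor of pancreas and duodenum, had 12.7 FPKM in the SW1990 and 1.28 FPKM in the HCT116 input, and was singled out after its values were seen.

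Liver and intestinal genes include known targets of these factors. Of the 15 liver genes tested, 3 were higher in RIP (APOA1, APOB, and SERPINA1), 0 were lower, and 12 did not pass the threshold, with a median of 0.79, beside the same 26.5% and 24.9% over all genes tested. None was lower by DESeq2 or at an unadjusted p-value under 0.05 (0 genes), while 1 was lower without the HCT116 pair. Without the Hep3B pair, 4 of the 15 had enough counts and 1 was higher, and without the SW1990 pair 5 of 15 were higher. SERPINA1, the antitrypsin gene, rose by 1.13 (SE 0.21, edgeR adjusted p = 0.00102). AHSG, the gene of a plasma glycoprotein, had 665 FPKM in the Hep3B input and 2001 FPKM in the RIP. Of 6 intestinal genes tested, FABP1 was lower and 0 were higher by edgeR and by DESeq2, with 1 higher at an unadjusted p-value under 0.05. The median was 0.31. FABP1, a fatty acid binding protein of liver and gut, had 66.2 FPKM in the Hep3B input and 0.811 in the RIP and was listed at 0 in the other lines. Its edgeR call therefore rests on the Hep3B pair alone, and DESeq2 did not call it. VIL1, which builds microvilli, had 151 FPKM in the Hep3B input, 4.72 in the SW1990 input, and 0 in the HCT116 input, and TFF3, a mucosal peptide, had 3.00 FPKM in the Hep3B and 1.86 in the SW1990 input. The intestinal genes at 1 FPKM or more numbered 3 of 15 in the SW1990 input, where CDX2 had 86.6 FPKM. They numbered 4 of 15 in the Hep3B input, where CDX2 had 0.374 FPKM. CDH17 reached this level only in SW1990 cells, with 2.97 FPKM in the input and at most 0.0242 FPKM in another input. FABP1 and MEP1A (1.16 FPKM in the Hep3B input) reached it only in Hep3B cells. CDH17 and MEP1A were singled out after their values were seen.

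Among the remaining lists, 3 of 6 prostate genes tested were higher (HOXB13, TMPRSS2, and SLC45A3) and STEAP2 was lower, with a median of 0.52, where 26.5% of all genes tested were higher and 24.9% lower. Without the SW1990 pair 1 was higher, without the DU145 pair 0 were lower, and without the Hep3B pair 2 were lower. HOXB13 was listed at 0 in the Hep3B and DU145 libraries, and TMPRSS2 at 0 in the HCT116 libraries and the DU145 input. Neither of their calls therefore rests on the prostate line. SLC45A3 rose by 1.35 (SE 0.21, edgeR adjusted p = 0.000364). Of 2 pancreatic acinar genes tested, PRSS1 and CEL, edgeR called 0 in either direction, and 0 had an unadjusted p-value under 0.05, while DESeq2 called 1 higher. CELA3B, an elastase gene, had 0.719 FPKM in the Hep3B input. Of 10 ductal and epithelial genes tested, 4 were higher (KRT19, CDH1, KRT8, and KRT18) and 0 were lower by edgeR, by DESeq2, or at an unadjusted p-value under 0.05, with a median of 0.38, beside the same shares of all genes. Without the SW1990 pair 4 of 9 were higher. KRT8, a keratin of simple epithelia, rose by 2.04 (SE 0.26, edgeR adjusted p = 9.47e-05), and KRT19, found in ducts, rose by 1.90 (SE 0.23, edgeR adjusted p = 6.97e-05). KRT18, the partner of KRT8, had its highest input level, 756 FPKM, in SW1990 cells.

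For each factor but CDX1, which had under 1 FPKM in every library, the 3 genes most like it across the 8 libraries were found by Pearson's r of log2(FPKM + 1) among 16899 genes with a mean of at least 1 FPKM. The 8 libraries come from 4 lines and share line and library type, so high values are common, and between 14 (GATA6) and 314 (GATA4) genes reached r of at least 0.95 with a factor. CDX2 was most like TMEM125 (r = 0.993), HOXB-AS4 (0.986), and VIPR1 (0.984). HNF4A was most like TRIM33 (0.989), IL17RB (0.983), and SLC44A3 (0.982). FOXA1 was most like HIST1H2AE (0.985), GSTT1 (0.984), and TTC13 (0.984), and FOXA2 like SORBS2 (0.994), RASGEF1B (0.992), and HS3ST3A1 (0.990). GATA4 was most like SLCO2B1 (0.996), GPR143 (0.994), and ITGA1 (0.993), and GATA6 like TUBA8 (0.983), IRX3 (0.983), and C19orf57 (0.976). SOX9 was most like GDF15 (0.990), AMDHD2 (0.987), and CYBA (0.987), and KLF5 like SRA1 (0.984), PARD6A (0.977), and RP11-728K20.1 (0.976). Among the factors themselves, FOXA2 and GATA4 had the most similar values (r = 0.978), followed by HNF4A and FOXA2 (0.907), while KLF5 ran opposite to GATA4 (-0.576).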

How the data were processed

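For each of 4 cell lines, 1 RPS6 RIP and 1 input library were sequenced, 8 in all. Alignment by the authors used TopHat and the human genome version 19 (the submitters' processing notes list CASAVA 1.8 and TopHat2 2.0.9). The tool that counted fragments, its annotation, and its use of strand are not given in the sources used here, and the library kit kept strand per the labels. The authors deposited an FPKM value per gene and library, and an estimated count that need not be whole. From the values, most estimated counts of a library are multiples of 1 step, as counts multiplied by a factor per library would be. The 4 libraries of a table appear scaled together, with a geometric mean of the steps of 0.998 in the table of Hep3B and HCT116 cells and of 0.997 in that of DU145 and SW1990 cells. All columns of values per sample in these tables were used. Separate deposited tables of the authors' own fold changes, p-values, and q-values were not used.

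The design had assumed counts that could be whole, and the deposited estimates were rounded. RIP and input were compared with edgeR 4.0.16 (R 4.3.3) by the quasi-likelihood test with a block for cell line, TMM normalization, a minimum mean of 10 counts, and Benjamini-Hochberg adjustment. The SE given with an edgeR fold change is its absolute log2 value divided by the square root of the F statistic of the test. The line pairs the libraries by design. Over 19921 genes r between the deviations of a RIP library and of the input from its line was 0.852 to 0.904, and against another line's input it was at most -0.03. The deviations were taken from the mean of the 4 lines. This alone pushes r between different lines below 0, so the contrast adds no separate support for the pairing. The fit was tested on simulated data drawn with the same spread for all genes, where most 2-fold changes were not called. Genes in these data need not share a spread, so that recovery does not give the sensitivity of the fit here. A missed threshold does not mean no change. Each library's estimated counts were divided by the step that most of them share to recover fragments, after which 89.1% to 92.2% of values above 0 were within 0.01 of a whole number. Alternatives used DESeq2 1.42.0, limma 3.58.1, other minima, units, pseudocounts and scaling, no block, and each pair left out. The recovered fragments, the folds by unit, and the ranges with a line left out were added after the values were seen.

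The members and the lists (related lineage factors and intestinal, liver, prostate, pancreatic acinar, and ductal genes) were chosen with earlier results of these data known. Genes named are the members, in each list the 3 with the highest input level and up to 3 called ones with the same direction in 4 lines, the 3 most similar genes per member, and genes on a member's locus. Some genes that this rule names are not reported here. Other list genes named were chosen after their values were seen. Sequences are from a RefSeq table of GRCh38.p14, whose windows were cut to the 250 bases before each start. Nothing in the labels says that libraries came from separate cultures, so p-values measure the spread between the lines sampled. All other steps were run in Python 3.11.15 (pandas 2.3.3, NumPy 2.4.6, matplotlib 3.10.9, SciPy 1.17.1).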

Additional observations from a re-analysis of the deposited data

Results flagged for a closer look

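In 27 groups of 4 libraries or 4 ratios of a factor, 4 had a cell line far from the other lines by Dixon's criterion. Chance flags about 1 in 20 groups that are independent and without ties. The input, RIP, and ratio groups of a factor share values, and ties at 0 fixed the outcome for CDX1. The number flagged can therefore not be set against that rate. SOX9 in the RIP library of DU145 cells had a log2(FPKM + 1) of 2.25, while the other RIP libraries lay between 5.98 and 6.27. CDX1 in SW1990 cells stood apart with 0.11 in the input, 0.21 in the RIP library, and a log2 ratio of 0.10, because it was listed at 0 in the other lines, and these values rest on 6 and 10 fragments. Differences between lines in the ratio of RIP to input were not tested, since each line has 1 pair.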

How the results depend on the processing

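The sign of the fold change was the same for all 8 tested factors in the 12 alternatives to the comparison of RIP with input. The number of factors called higher was 6 in the fit as reported, with DESeq2, without a minimum on counts or with a minimum mean of 50, with scaling on protein-coding genes, and with recovered fragments. It was 0 with no replicate block, where cell line was left out, and 3 with limma on log2(FPKM + 1) and on log2(FPKM + 0.1). When each pair was left out in turn it was between 3 and 6, and the number lower was between 0 and 1, the lowest number of increases and the call of KLF5 both arising without the Hep3B pair. Over the other lists, 19 genes were called higher and 4 lower. These numbers were 0 and 0 with no replicate block, 12 and 1 with limma on log2(FPKM + 1), and 14 and 1 on log2(FPKM + 0.1), and between 14 and 19 and between 3 and 5 when each pair was left out. Over all genes, 5282 were higher and 4960 lower with the block, and 1427 and 1344 without it. The number of factors in the HCT116 input was 5 at 1 FPKM and 3 at 5 FPKM, and in the DU145 input it was 3 at 1 FPKM and 5 at 0.5 FPKM. The log2 ratio of the highest to the next input was reversed for FOXA1 in TPM (-0.55, Hep3B over DU145) and for SOX9 in the RIP libraries (-0.10, SW1990 over Hep3B), and the cause was not tested. Factors listed at 0 in a library were not detectable at this depth, and CDX1 has too few fragments for a comparison.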
